A study of Mus musculus with 12 samples.

Results

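A set of 9 imprinted genes with ties to growth, namely Cdkn1c, Grb10, Meg3, Dlk1, Peg3, Mest, Plagl1, Ndn and Impact, was followed in single cells labelled as haematopoietic stem cells (HSC) of the mouse. They were taken as a list of gene symbols with no cutoff on their values, but with earlier results of these data known. They make up 9 of the 22307 symbols in the count tables. The cells came from the aorta-gonad-mesonephros region (AGM) of the embryo, from fetal liver and from bone marrow of a mouse line that carries a lineage-tracing barcode, which all groups share. The labels give neither age nor the markers of the sort, and every cell lost its nucleus before cytoplasmic RNA was read. There were 2 AGM plates, 5 fetal liver plates and 5 bone marrow plates. Of 1152 wells, the filters kept 143 of AGM, 454 of fetal liver and 423 of bone marrow as cells. Both AGM plates carry 1 origin code in their titles, and fetal liver and bone marrow carry 2 codes each, so that in AGM the tissue and the origin cannot be told apart and its spread was not measured. Bone marrow plates 4 and 5 are assigned to the tissue by their titles alone. Nothing in the labels says that plates of a code are separate animals, so p-values over plates measure the spread between plates, which may be technical.

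An imprinted gene is read mainly from the copy inherited from 1 parent, through DNA methylation marks set in the egg or the sperm. Many imprinted genes act on fetal growth, where those read from the mother's copy often hold growth back and several of those read from the father's copy promote it. In HSC, Cdkn1c and Ndn are known as brakes on the cell cycle, and the domain of Dlk1 and Meg3 has been tied to the upkeep of fetal liver HSC. The counts here do not separate the parental copies, so every value below is the sum of both.

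Depth differed between tissues. A kept cell held a median of 159228 UMIs (unique molecular identifiers, 1 per counted RNA molecule) in AGM, and the medians were 54303 in fetal liver and 59558 in bone marrow, while plate totals ran from 2596681 to 15977740 UMIs. Levels are given as CPM, UMIs per 1000000 UMIs of the tested genes after TMM scaling. Shares of thinned cells were taken after each cell was thinned at random to 20000 UMIs. This left 141, 419 and 392 cells in AGM, fetal liver and bone marrow. Counts out of all kept cells were not thinned, so they also carry the differences in depth. Thinned cells still held unequal numbers of genes, on average 3419 per AGM cell, 3068 per fetal liver cell and 1994 per bone marrow cell. All 12 listed HSC markers were found in each tissue, although Slamf1 stood at only 0.428 CPM in AGM. Markers of endothelium were also present, most of all in AGM, where all 143 cells held UMIs of at least 3 of 11 such markers. Before thinning, as for AGM, the same held for 324 of 454 fetal liver cells and 100 of 423 bone marrow cells. The most abundant in the later tissues were Egfl7 (543.1 CPM in fetal liver and 294.7 CPM in bone marrow) and Esam (176.2 and 122.0 CPM). In AGM these stood at 577.9 and 243.1 CPM. The summed level of the 11 markers per plate was 1669 to 2090 CPM in AGM, 844 to 1014 CPM in fetal liver and 370 to 691 CPM in bone marrow. There Cdh5, Plvap and Mmrn2 were at 0. In the edgeR fit, 7 of these 11 markers were lower in fetal liver than in AGM and 9 of 11 were lower in bone marrow than in AGM, and 4 of 11 were lower and 0 higher in bone marrow than in fetal liver (Cdh5, Cldn5, Plvap and Egfl7). They thus moved with all 3 comparisons below, and their part in them was not tested.

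Positions of the genes follow GRCm38 (GENCODE vM21). Cdkn1c (chr7:143458339-143461050, minus strand), Peg3 (chr7:6703892-6730431, minus strand) and Ndn (chr7:62346569-62350262, plus strand, a single exon) are far apart on chromosome 7. Dlk1 (chr12:109452823-109463336) and the long noncoding RNA Meg3 (chr12:109541001-109571726) neighbour each other on the plus strand of chromosome 12. Grb10 (chr11:11930508-12038683) is on the minus strand, while Mest (chr6:30723547-30748465) and Plagl1 (chr10:13060504-13131694) are on the plus strand. Exons of Mest overlap those of Copg2 on the opposite strand, and whether the counting used strand is not given in the sources used here.

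Promoter windows of 300 bases (250 before to 50 after a RefSeq start, GRCm38.p6) were read for 4 of the genes that were lower in a later tissue. They show how many CpG each holds, the dinucleotide at which DNA methylation sits. Methylation was not measured, and the windows were not chosen to lie at imprinting marks. For Mest and Grb10, which have several starts, the window with the most CpG is shown. Each runs 5′ to 3′ on the gene's strand, with CpG in capitals.
Mest (chr6:30737800-30738099, plus strand): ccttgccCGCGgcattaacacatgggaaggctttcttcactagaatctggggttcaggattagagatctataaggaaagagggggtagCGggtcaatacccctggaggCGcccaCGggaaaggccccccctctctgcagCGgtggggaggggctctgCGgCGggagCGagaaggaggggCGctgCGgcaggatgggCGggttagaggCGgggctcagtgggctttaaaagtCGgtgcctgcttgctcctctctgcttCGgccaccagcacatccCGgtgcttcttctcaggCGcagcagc
Plagl1 (chr10:13090582-13090881, plus strand): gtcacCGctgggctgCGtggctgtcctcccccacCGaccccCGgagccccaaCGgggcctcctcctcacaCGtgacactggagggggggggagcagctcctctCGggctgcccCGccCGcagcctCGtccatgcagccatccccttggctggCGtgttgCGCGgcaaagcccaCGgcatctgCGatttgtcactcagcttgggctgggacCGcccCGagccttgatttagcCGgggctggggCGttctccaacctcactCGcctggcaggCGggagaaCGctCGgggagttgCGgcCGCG
Peg3 (chr7:6730370-6730669, minus strand): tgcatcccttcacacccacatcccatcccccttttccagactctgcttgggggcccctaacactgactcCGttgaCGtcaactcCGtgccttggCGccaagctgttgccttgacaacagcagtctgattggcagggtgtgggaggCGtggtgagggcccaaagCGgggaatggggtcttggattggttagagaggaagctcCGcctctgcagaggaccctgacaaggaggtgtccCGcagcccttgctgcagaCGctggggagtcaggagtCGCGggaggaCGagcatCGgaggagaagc
Grb10 (chr11:12037371-12037670, minus strand): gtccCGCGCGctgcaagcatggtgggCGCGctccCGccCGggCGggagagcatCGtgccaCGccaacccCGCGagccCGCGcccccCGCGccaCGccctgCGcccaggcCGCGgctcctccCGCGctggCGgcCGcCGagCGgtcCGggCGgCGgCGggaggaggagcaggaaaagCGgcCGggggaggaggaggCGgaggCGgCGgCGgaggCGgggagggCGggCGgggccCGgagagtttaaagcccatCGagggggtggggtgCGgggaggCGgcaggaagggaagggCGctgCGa

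These windows held 17 CpG for Mest, 26 for Plagl1, 13 for Peg3 and 45 for Grb10, against a median of 7 over all 32851 RefSeq windows of that length. The Grb10 window held as many CpG as or more than 98.35% of them, and the same share was 84.5% for Plagl1, 70.3% for Mest and 63.7% for Peg3. Windows at other starts held 8 CpG for Mest (54.2%) and 9 for Grb10 (56.5%), so the count depends on the start. The motif GGGGCCCC, which is bound by Plagl1, was searched on both strands and began at base 50 of the Peg3 window, it was in none of the other 3, and 1.08% of all windows hold it. The Yy1 motif GCCATNTT, in 6.05% of all windows, was in none of the 4. The GC box GGGCGG, in 35.7% of all windows, was in the windows of Mest, Plagl1 and Grb10. Such a match is only a run of letters, since binding was not measured here.

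Across the 3 tissues the members were either lower in the later tissue or not called. In fetal liver against AGM 3 of the 9 were lower (Cdkn1c, Mest and Plagl1) and 0 were higher, where 1.91% of the 15472 tested genes were lower, 2.92% were higher and 4.83% were called in either direction. In bone marrow against fetal liver 3 of the 9 were lower (Cdkn1c, Peg3 and Plagl1) and 0 were higher, where 2.06% of all tested genes were lower, 2.68% were higher and 4.73% were called. Between bone marrow and AGM 5 of the 9 were lower (Cdkn1c, Grb10, Peg3, Mest and Plagl1) and 0 were higher, where 3.63% of all tested genes were lower, 5.29% were higher and 8.92% were called. The median log2 fold change of the 9 was -0.62, -1.03 and -1.62 in these comparisons, against 0.05, 0.00 and 0.04 over all tested genes. Mest passed the filter on low counts through AGM alone, and of Plagl1 and Peg3 no bone marrow library was above its level of 0.605 CPM. Such members were kept only through tissues where they are high, so these counts and medians describe the list and nothing is read from them against the shares of all genes. Calls rest on edgeR's quasi-likelihood test over the 5 origin libraries with a Benjamini-Hochberg adjusted p under 0.05. The comparisons share libraries and so are not independent of each other.

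**Figure D1:**
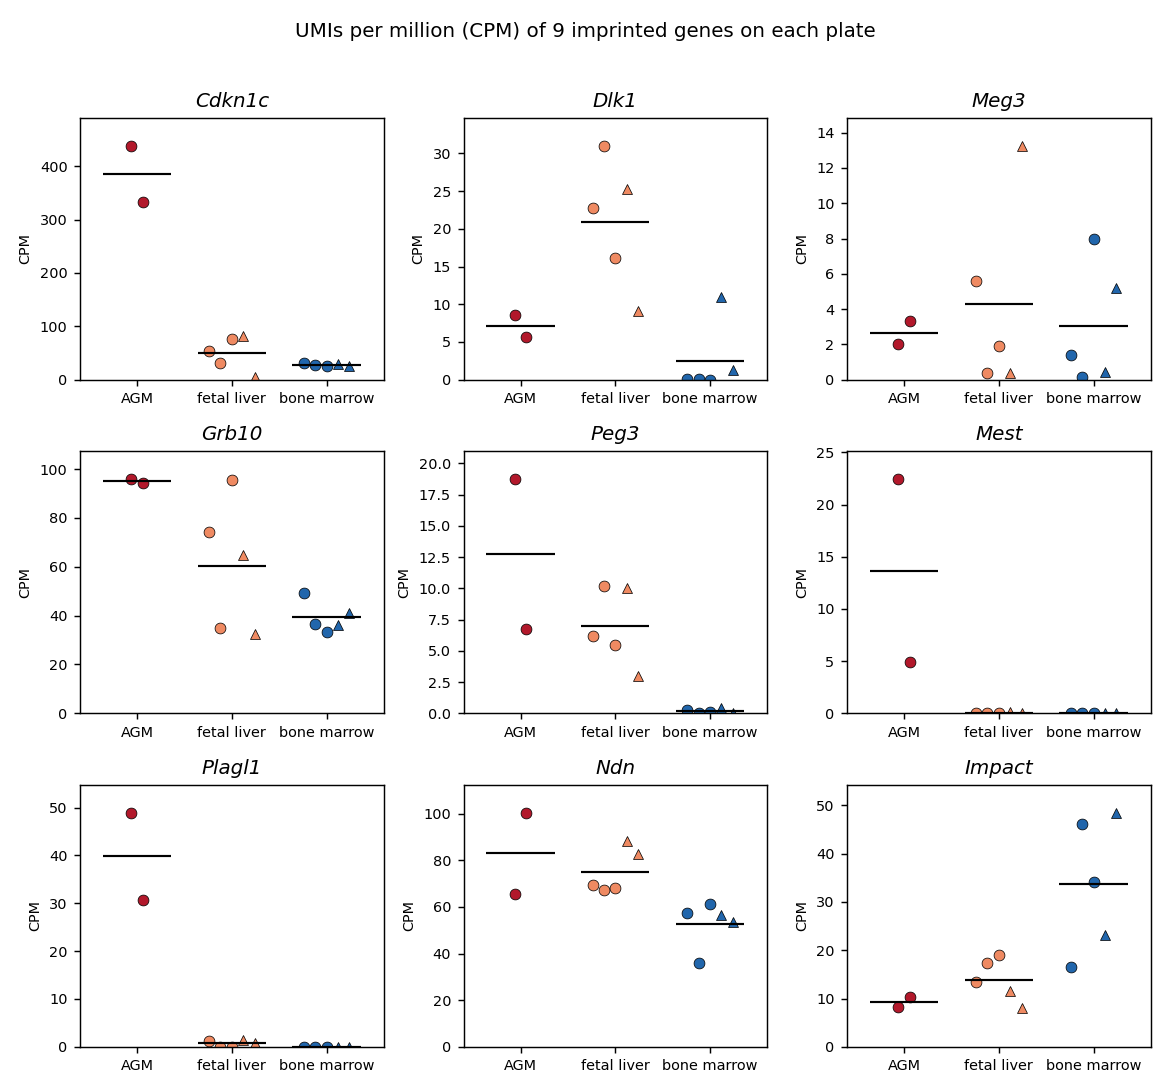
CPM of each gene (y axis, linear, its own range in each panel) on each plate of AGM, fetal liver and bone marrow (x axis), with circles for the first and triangles for the second origin code of a tissue and a line at the mean of the plates. Cdkn1c, Mest and Plagl1 are highest on both AGM plates, Dlk1 has its highest plate in fetal liver (31.0 CPM), and Impact has its highest plate in bone marrow (48.4 CPM).

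**Figure D2:**
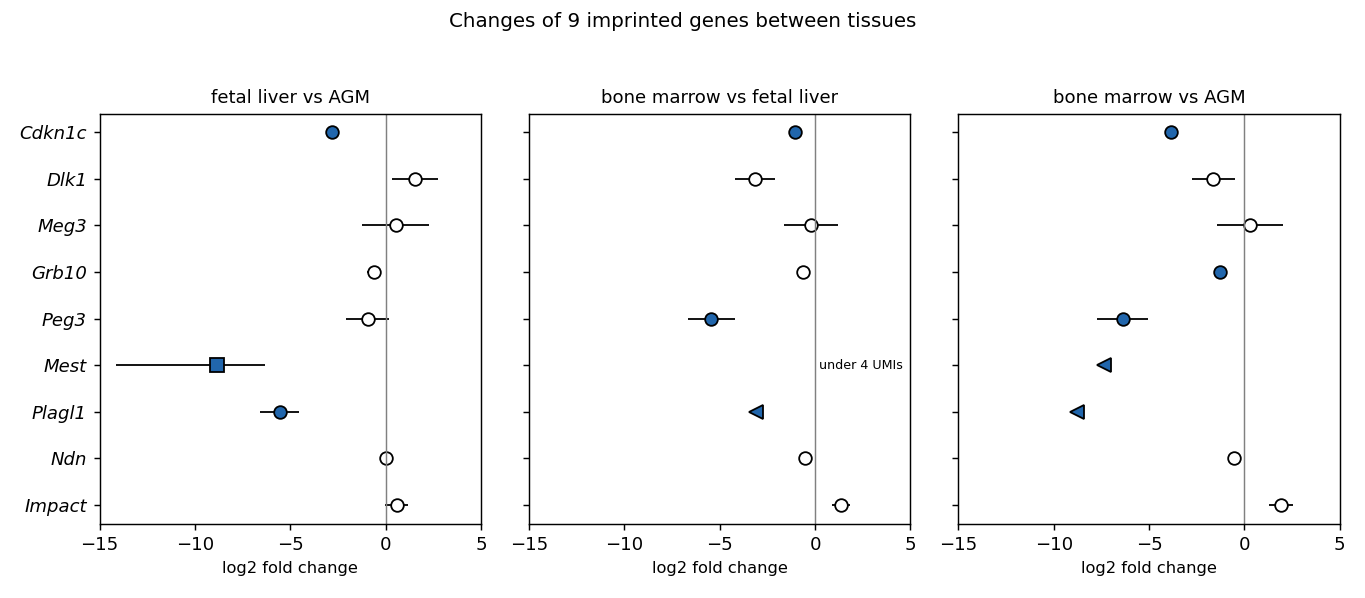
Log2 fold change (x axis) of the 9 genes in the 3 comparisons, later tissue over earlier one, with the approximate standard error as a line and filled symbols for genes called lower. Squares are ratios of summed UMIs with their exact 95% counting interval (Mest, 1 fetal liver UMI). Left-pointing triangles are bounds against a tissue without a UMI (Mest and Plagl1 in bone marrow). None of the 9 genes was called higher.

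Among the genes read mainly from the mother's copy, Cdkn1c, which encodes the cyclin-dependent kinase inhibitor p57, was far higher in AGM than later. It stood at 438.4 and 333.8 CPM on the AGM plates and at 53.2, 30.6, 76.7, 82.3 and 5.43 CPM on fetal liver plates 1 to 5. The bone marrow plates lay at 30.5, 26.7, 25.1, 30.1 and 25.3 CPM. Both AGM plates were above all others by a wide margin. By a margin of any size this held for 14.2% of tested genes against fetal liver and 14.6% against bone marrow. The bone marrow plates were close together and lay within the fetal liver range, and fetal liver plate 5 was the lowest of the 12. The log2 fold change was -2.83 ± 0.27 (approximate SE) in fetal liver against AGM (edgeR adjusted p = 5.51e-07), or 7.13-fold lower. It was -3.87 ± 0.27 in bone marrow against AGM (edgeR adjusted p = 4.15e-09), or 14.6-fold lower, and this call was kept in all 29 alternative settings. Between bone marrow and fetal liver it was -1.03 ± 0.23 (edgeR adjusted p = 0.0112), a call lost in 9 of 29 settings. It was lost with thinned counts (edgeR adjusted p = 0.136), cells counted in place of UMIs (0.235) and both tissues fitted alone (0.104). Each plate as a library (edgeR adjusted p = 0.243) and limma with origin codes as a random block (limma adjusted p = 0.292) lost it too. With fetal liver plate 4 left out the log2 fold change there was -0.16 (edgeR adjusted p = 0.97), without fetal liver plate 3 the adjusted p was 0.0694, without bone marrow plate 5 it was 0.067, and without the origin of fetal liver plates 4 and 5 it was 0.121.

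Cell by cell, Cdkn1c was close to universal in AGM and patchy later. A Cdkn1c UMI was found in 143 of 143 AGM cells (100%, exact 95% interval 97.5 to 100%), in 209 of 454 fetal liver cells (46.0%, 41.4 to 50.7%) and in 75 of 423 bone marrow cells (17.7%, 14.2 to 21.7%). These counts were not thinned. Among cells with Cdkn1c the median was 68 UMIs in AGM and 2 UMIs in both later tissues before thinning. It was 10 UMIs in AGM and 2 UMIs in both later tissues after thinning. After thinning, the share of cells with a UMI was 12.3 ± 4.59% in bone marrow and 32.2 ± 14.5% in fetal liver (SD over plates, n = 5 each, exact permutation p = 0.0397, adjusted over the 9 genes 0.0714), so this difference did not pass. Thinned AGM cells held Cdkn1c in 92.6 and 91.3% on the 2 plates. In bone marrow 1 cell of plate 1 held 135 UMIs, 16.0% of the tissue's Cdkn1c UMIs, and the 10 cells with most held 64.8% of them, against 25.6% in the 10 such cells of fetal liver and 18.3% in those of AGM. When cells with a UMI were counted in place of UMIs, the difference between fetal liver and AGM was -0.68 on the log2 scale and not called (edgeR adjusted p = 0.271), a scale on which AGM stands at its ceiling of all cells.

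Since p57 is known as a brake on the cell cycle, Mki67, a gene of cycling cells, was read in thinned cells with and without Cdkn1c, on plates with at least 10 cells of each kind. On the 4 fetal liver plates that qualified the share with a Mki67 UMI was 21.1, 25, 24.1 and 25.6% with Cdkn1c and 15.7, 22.4, 15.9 and 13.5% without it. It was higher with Cdkn1c on each of these 4 plates, by 2.61 to 12.2 percentage points. The cells were few, with Mki67 in 8 of 38, 6 of 24, 7 of 29 and 10 of 39 with Cdkn1c. Without Cdkn1c it was in 8 of 51, 15 of 67, 7 of 44 and 7 of 52. Thinned cells with Cdkn1c also held more genes on plates 1, 3 and 4 (medians 3267, 2773 and 3100 against 3155, 2661 and 2864). On plate 2 they held fewer (2960 against 3059). The part of this in the shares was not tested. On the 2 bone marrow plates that qualified the share with a Mki67 UMI was 10 and 0.00% with Cdkn1c (1 of 10 and 0 of 14 cells). Without Cdkn1c it was 1.22 and 12.7% (1 of 82 and 7 of 55), so 1 plate went each way. Cells of a plate are not replicates and these shares carry no test.

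Grb10, an adaptor that dampens signalling from insulin and IGF receptors, differed less. The bone marrow plates held 49.1, 36.4, 33.2, 36.3 and 41.3 CPM, against 95.8 and 94.4 CPM on the AGM plates. The fetal liver plates ranged from 32.5 to 95.6 CPM and overlapped with both. In bone marrow against AGM Grb10 fell by 1.26 ± 0.33 on the log2 scale (edgeR adjusted p = 0.0197), a call lost in 4 of 29 settings, namely with fetal liver plate 4 (0.319) or bone marrow plate 5 (0.0549) left out, with both tissues fitted alone (0.0558) and with cells counted in place of UMIs (0.0608). It was not called in fetal liver against AGM (-0.62 ± 0.34, edgeR adjusted p = 0.4) or in bone marrow against fetal liver (-0.63 ± 0.28, edgeR adjusted p = 0.261). The share of thinned cells with Grb10 was 13.04, 12.8, 11.3, 15.2 and 10.1% on the bone marrow plates, against 38.2, 24.2, 50.7, 38.5 and 30.7% on the fetal liver plates. All bone marrow plates lay below all fetal liver plates (exact permutation p = 0.00794, the smallest that 5 against 5 plates allow, adjusted over the 9 genes 0.0238), as was true of 18.7% of all tested genes, while 0.724% had all bone marrow plates above. Thinned AGM cells held Grb10 in 63.2 and 60.9%.

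Meg3, a noncoding RNA of the Dlk1 domain that lies beside it, was rare everywhere in the cytoplasmic RNA. RNA held in the nucleus was not read, so these counts do not show how much Meg3 a whole cell holds. Its levels were 2.01 and 3.33 CPM on the AGM plates, 0.376 to 13.3 CPM on the fetal liver plates and 0.130 to 7.97 CPM on the bone marrow plates, which overlap fully. It was found in 10 AGM cells, 22 fetal liver cells and 11 bone marrow cells. A single cell of bone marrow plate 3 held 55 UMIs, 60.4% of the tissue's Meg3 UMIs, and 14 of the 22 positive fetal liver cells were on plate 5. It was called in none of the 3 comparisons (edgeR adjusted p = 0.934 in fetal liver against AGM, 0.98 in bone marrow against fetal liver and 0.953 in bone marrow against AGM), and at this number of UMIs its direction was not stable.

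Of the genes read mainly from the father's copy, Plagl1 and Mest were close to limited to the AGM plates. Plagl1, a zinc finger factor known to act on other imprinted genes, stood at 48.9 and 30.8 CPM on the AGM plates and at 1.24, 0.00, 0.00, 1.503 and 0.904 CPM on the fetal liver plates. In bone marrow it had 0 UMIs on each of the 5 plates. Before thinning, a Plagl1 UMI was in 100 of 143 AGM cells (69.9%), in 4 of 454 fetal liver cells (0.881%) and in 0 of 423 bone marrow cells. The last count allows a share of up to 0.709%, taken as 3 of 423 cells. After thinning, it was in 36.2% of 141 AGM cells, 0.716% of 419 fetal liver cells and 0 of 392 bone marrow cells. The log2 fold change in fetal liver against AGM was -5.56 ± 1.01 (edgeR adjusted p = 0.00165). Bone marrow was at least 434-fold lower than AGM (edgeR adjusted p = 2.16e-05), a bound set with a floor of 3 UMIs over the group. Both of these calls held in all 29 alternative settings. Bone marrow was at least 8.51-fold lower than fetal liver (edgeR adjusted p = 0.0189), where the fetal liver level rests on 23 UMIs in 4 cells. That call was lost in 10 of 28 settings, among them without fetal liver plate 4 (0.202), fetal liver plate 1 (0.0601) or bone marrow plate 5 (0.0758), with 1 origin left out (0.073 for fetal liver plates 4 and 5, 0.0608 for bone marrow plates 1 to 3), and without the fullest cell of each origin (0.256).

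Mest, which encodes a protein of the alpha/beta hydrolase fold and is also known as Peg1, had 413 and 47 UMIs (22.4 and 4.89 CPM) on the AGM plates. Of the fetal liver plates only plate 4 held it, with 1 UMI, and bone marrow had 0 UMIs on all 5 plates. Before thinning, AGM plate 1 held Mest in 43 of 95 cells and AGM plate 2 in 5 of 48. In thinned cells these shares were 16.8 and 8.70%. The level thus differs between plates of the same origin code. The ratio of summed UMIs put fetal liver 451.6-fold lower than AGM, with an exact 95% counting interval of 80.6 to 17870 (edgeR adjusted p = 0.0236). Bone marrow was at least 167-fold lower than AGM (edgeR adjusted p = 0.00793). The first call was lost in 8 of 29 settings, with an adjusted p of 0.317 without AGM plate 1, 0.0557, 0.178 and 0.0517 with fetal liver plate 3, 4 or 5 left out, 0.0579 and 0.0711 without bone marrow plate 4 or 5, and 0.199 and 0.079 without each fetal liver origin. The second was lost without AGM plate 1 (0.165) and without fetal liver plate 4 (0.0931). A total of 1 cell held 124 UMIs, 26.96% of the Mest UMIs of AGM, and leaving out the fullest cell of each origin did not end either call. Copg2, whose exons overlap Mest on the other strand, stood at 41.3 CPM in AGM, 26.99 CPM in fetal liver and 20.8 CPM in bone marrow, and was called in none of the comparisons.

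Peg3, a zinc finger protein, was present in AGM and fetal liver and close to 0 in bone marrow. The AGM plates held 345 and 65 UMIs, the fetal liver plates 40, 51, 26, 80 and 10 UMIs and the bone marrow plates 3, 0, 1, 1 and 0 UMIs. In CPM these were 18.7 and 6.76 in AGM, 3.01 to 10.2 in fetal liver and 0.00 to 0.437 in bone marrow. The bone marrow plates lay below all others, while fetal liver overlapped with AGM. Bone marrow plates were all below for 4.21% of tested genes against fetal liver (all above for 3.54%). Against AGM they were all below for 14.6% (all above for 11%). The log2 fold change was -5.44 ± 1.22 in bone marrow against fetal liver (edgeR adjusted p = 0.0115) and -6.39 ± 1.32 in bone marrow against AGM (edgeR adjusted p = 0.00293). In fetal liver against AGM it was -0.95 ± 1.11 and not called (edgeR adjusted p = 0.755), and it turned to 0.19 without AGM plate 1. Without fetal liver plate 4 neither bone marrow call passed (adjusted p 0.242 against fetal liver and 0.0797 against AGM), and the first was lost in 7 of 29 settings in all. The others were bone marrow plate 5 left out (0.0821), either fetal liver origin left out (0.0513 and 0.0736), both tissues fitted alone (0.0758), thinned counts (0.0774) and cells counted in place of UMIs (0.11, log2 fold change -2.36). In thinned cells Peg3 was found in 0.520 ± 0.729% in bone marrow and 5.61 ± 3.20% in fetal liver (SD over plates, n = 5 each, exact permutation p = 0.0159, adjusted over the 9 genes 0.0357). The plates overlapped, with bone marrow at up to 1.515% and fetal liver from 1.37%. The bone marrow share rests on 2 of 392 cells with 1 UMI each. The difference did not pass when at least 2 UMIs were asked for (adjusted permutation p = 0.107). Nor did it pass without bone marrow plate 1, 2, 3 or 5 (0.0536 each).

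Dlk1, a membrane protein with EGF repeats related to Notch ligands, had its highest levels in fetal liver. The AGM plates held 8.52 and 5.72 CPM, the fetal liver plates 22.7, 31.0, 16.2, 25.3 and 9.04 CPM and the bone marrow plates 0.0991, 0.130, 0.00, 10.9 and 1.30 CPM. Both AGM plates were below all fetal liver plates, as for 11.9% of tested genes. Bone marrow plate 4 was above fetal liver plate 5, so the tissues overlapped, and 19 of its 25 UMIs came from 1 cell. The bone marrow origins stood at 0.0794 CPM (plates 1 to 3) and 5.40 CPM (plates 4 and 5). The log2 fold change of -3.15 ± 1.04 in bone marrow against fetal liver was not called (edgeR adjusted p = 0.0995). It was called in 7 of 29 settings, among them without bone marrow plate 4 (0.00886), without the fullest cell of each origin (0.0158) and without bone marrow plates 4 and 5 (6.54e-12). In fetal liver against AGM it was 1.54 ± 1.21 (edgeR adjusted p = 0.6).

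The share of cells with Dlk1 was 1.73 ± 3.30% in thinned bone marrow cells and 18.2 ± 6.59% in thinned fetal liver cells (SD over plates, n = 5 each, exact permutation p = 0.00794, adjusted over the 9 genes 0.0238). All bone marrow plates lay below all fetal liver plates, the highest bone marrow plate at 7.58% and the lowest fetal liver plate at 10.96%, and 18.7% of all tested genes showed the same order (0.724% the opposite one). Thinned AGM cells held Dlk1 in 11.6 and 4.35%.

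Ndn encodes necdin, a growth-suppressing protein of the MAGE family. It stood at 65.5 and 100.3 CPM on the AGM plates, at 69.3, 67.4, 68.3, 88.3 and 82.6 CPM on the fetal liver plates and at 57.3, 35.8, 61.1, 56.3 and 53.6 CPM on the bone marrow plates. All bone marrow plates were below all others, as for 4.21% of tested genes against fetal liver and 14.6% against AGM, but no difference was called (edgeR adjusted p = 0.322 against fetal liver and 0.367 against AGM, log2 fold change -0.54 in both). Fetal liver and AGM had almost the same level, 77.5 CPM each as the mean of origins. In thinned cells Ndn was found in 17.2 ± 4.63% of bone marrow cells and 49.3 ± 14.3% of fetal liver cells (SD over plates, n = 5 each, exact permutation p = 0.00794, adjusted over the 9 genes 0.0238). All bone marrow plates lay below all fetal liver plates in this share too, as for 18.7% of all tested genes. Thinned AGM cells held it in 55.8 and 58.7%.

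Impact (chr18:12955852-12992950, plus strand), known to restrain the amino acid sensor kinase Gcn2 through Gcn1, was the only member whose mean level was highest in bone marrow, although no difference was called. It stood at 8.31 and 10.3 CPM on the AGM plates, at 13.5, 17.4, 18.9, 11.5 and 8.14 CPM on the fetal liver plates and at 16.5, 46.0, 34.2, 23.2 and 48.4 CPM on the bone marrow plates. Bone marrow overlapped with fetal liver through plate 1 and was above both AGM plates, as for 11% of tested genes. The log2 fold change was 1.35 ± 0.48 against fetal liver (edgeR adjusted p = 0.13) and 1.92 ± 0.63 against AGM (edgeR adjusted p = 0.0622). The comparison with AGM passed in 4 of 29 settings, including without AGM plate 2 (0.0476), and the one with fetal liver passed in 1, without bone marrow plates 1 to 3 (0.0391). Over these settings the log2 fold change ran from 0.26 to 2.12 against AGM and from 0.18 to 1.84 against fetal liver. Before thinning, the 10 cells with most Impact held 70.2% of its UMIs in bone marrow, 51.2% in fetal liver and 77.8% in AGM. After thinning the share of cells with Impact was 9.09 ± 3.09% in bone marrow and 10.4 ± 1.99% in fetal liver (SD over plates, n = 5 each, exact permutation p = 0.468, adjusted over the 9 genes 0.602), so no difference was detectable. Thinned AGM cells held it in 9.47 and 8.70%.

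**Figure D3:**
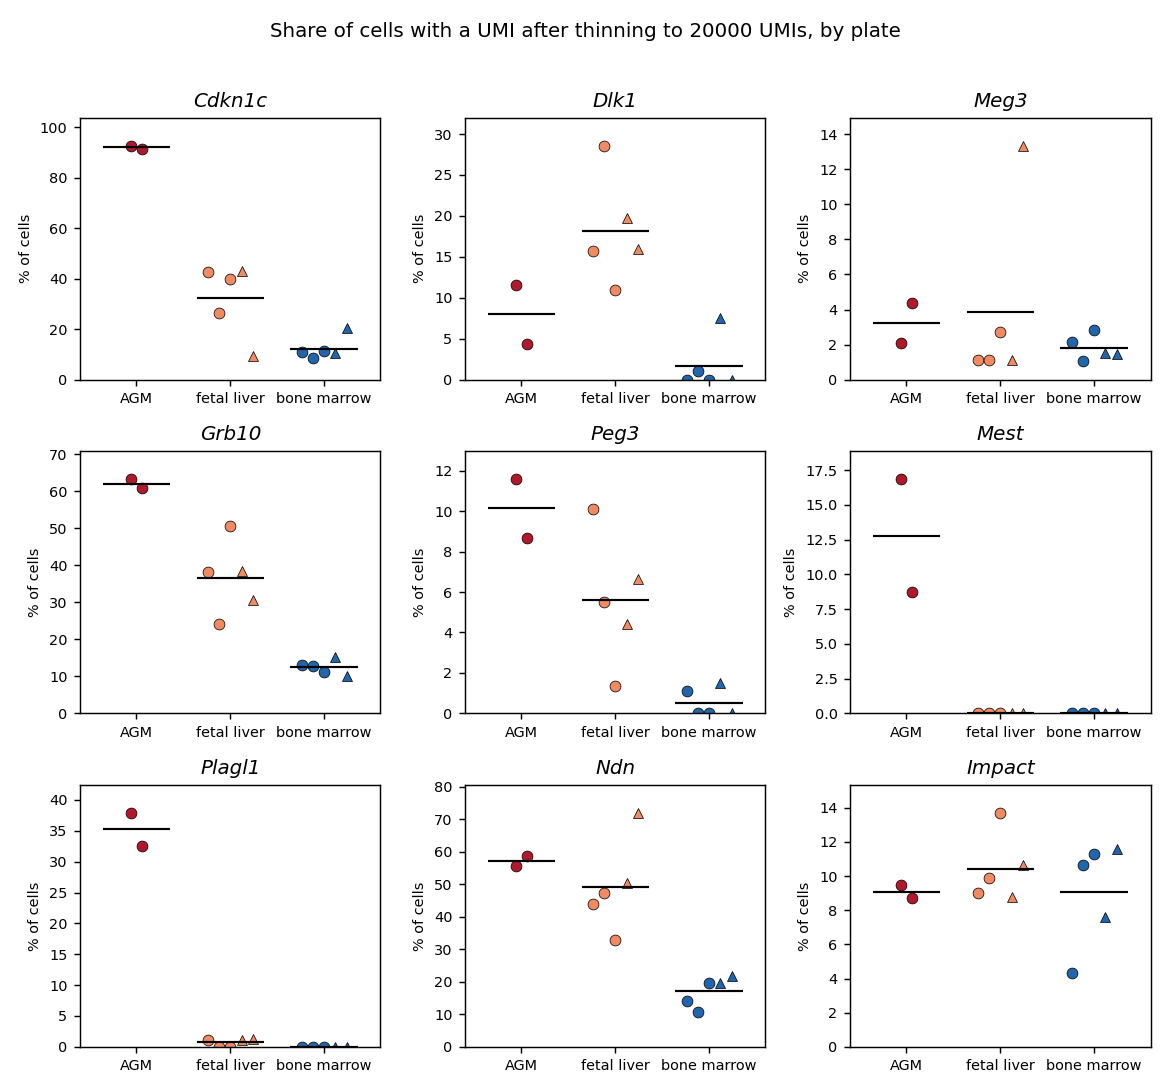
Share of cells with at least 1 UMI of each gene after thinning every cell to 20000 UMIs (y axis in percent, its own range in each panel), by plate and tissue (x axis), with symbols as in the plot of CPM by plate. For Dlk1, Grb10 and Ndn all bone marrow plates lie below all fetal liver plates, while for Impact the plates overlap.

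How many UMIs a positive cell held also differed by tissue. Among thinned cells with the gene, the mean was 5.98 Grb10 UMIs in bone marrow and 3.52 in fetal liver, 5.86 Ndn UMIs in bone marrow and 2.73 in fetal liver, and 7.91 Impact UMIs in bone marrow and 1.95 in fetal liver. For Cdkn1c it was 4.68 in bone marrow and 3.11 in fetal liver, against 11.6 in AGM. The direction between bone marrow and fetal liver was not particular to these genes. Of the 7555 genes found in at least 20 thinned cells of both tissues, 95.5% had more UMIs per positive cell in bone marrow. Their median ratio was 1.72, and how far a member such as Impact lay from it was not tested. Bone marrow thus had fewer positive cells with more UMIs each over most genes, and for a plate total, fewer expressing cells and less RNA per cell cannot be told apart.

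**Figure D4:**
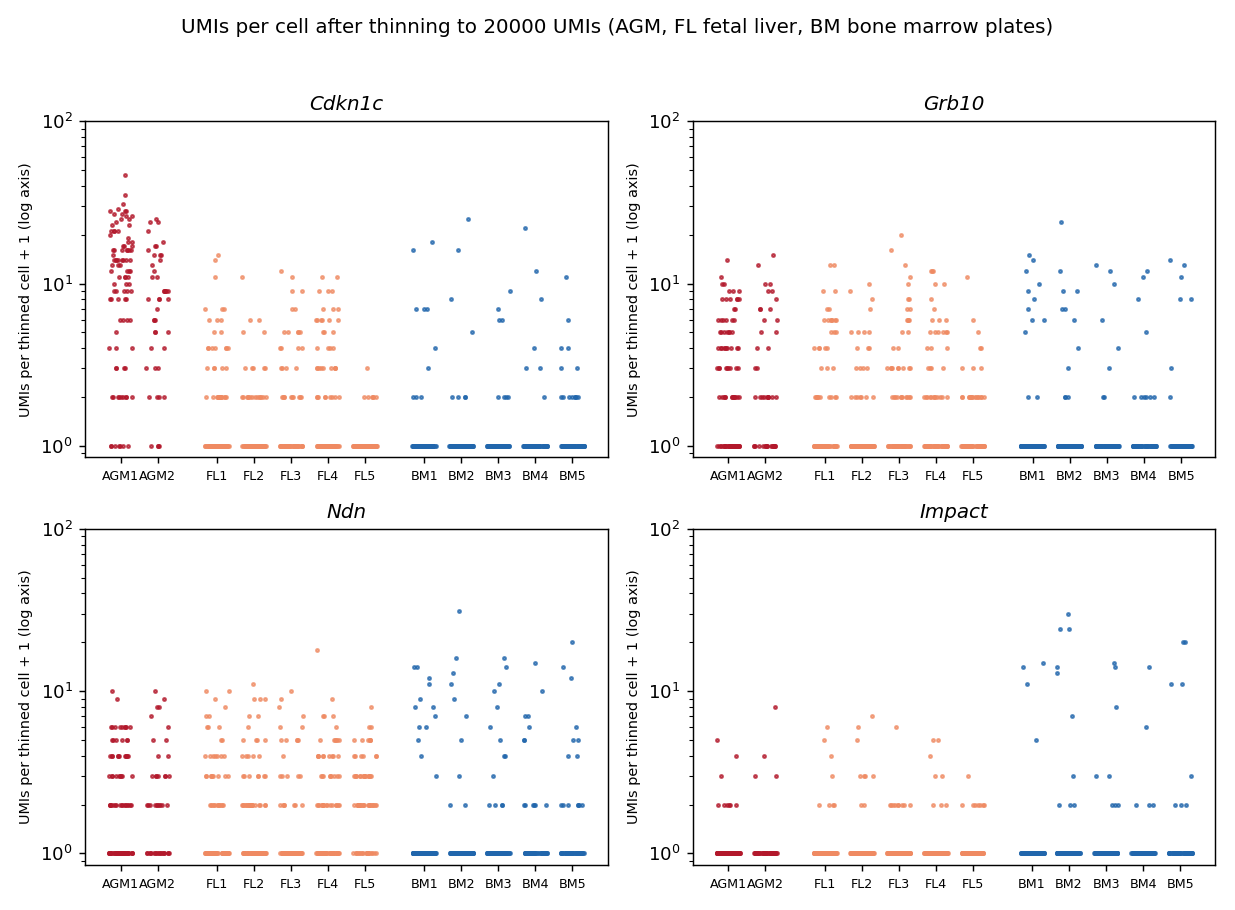
UMIs of Cdkn1c, Grb10, Ndn and Impact per cell after thinning to 20000 UMIs (y axis, UMIs + 1 on a log axis), 1 dot per cell, by plate (x axis; horizontal spread within a plate is random). Most AGM cells lie above 0 UMIs for Cdkn1c, and in bone marrow most cells sit at 0 for all 4 genes with a few cells as high as 30 UMIs.

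Counted together, the members thinned out over the 3 tissues. A thinned cell held UMIs of 2.90 ± 0.161 of the 9 genes in AGM (SD, n = 2 plates), 1.57 ± 0.0945 in fetal liver and 0.551 ± 0.0968 in bone marrow (SD, n = 5 plates each). All bone marrow plates (0.447 to 0.652) lay below all fetal liver plates (1.43 to 1.67, exact permutation p = 0.00794, the smallest possible), which lay below both AGM plates (2.78 and 3.01). At least 3 of the genes were found in 61.7% of AGM cells, 16.9% of fetal liver cells and 1.28% of bone marrow cells. None of the 9 was found in 0.709% of AGM cells, 15.8% of fetal liver cells and 58.9% of bone marrow cells. The number of all genes per thinned cell was lower in the later tissues too, as given above, and its part in them was not tested.

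**Figure D5:**
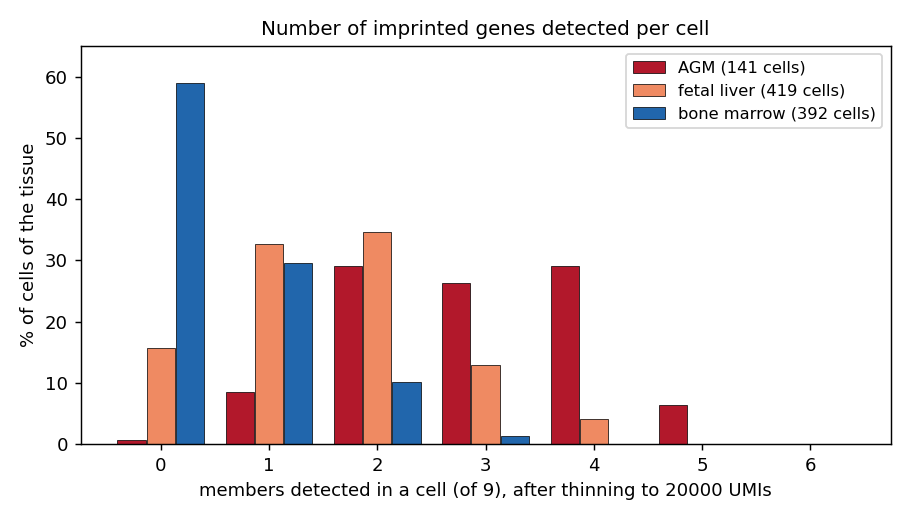
Share of cells (y axis, percent of the tissue's thinned cells) by the number of the 9 genes with a UMI in the cell (x axis), for AGM, fetal liver and bone marrow. In bone marrow 58.9% of cells hold none and in fetal liver 34.6% hold 2. In AGM 29.1% hold 2 and another 29.1% hold 4.

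Other imprinted genes were listed for comparison, and 54 of 70 were tested. In fetal liver against AGM 1 was higher and 2 were lower, beside 2.92% and 1.91% of all tested genes. In bone marrow against fetal liver 1 was higher and 3 were lower, beside 2.68% and 2.06%. In bone marrow against AGM 2 were higher and 5 were lower, beside 5.29% and 3.63%. The median log2 fold changes of the 54 were -0.53, -0.32 and -0.55, against 0.05, 0.00 and 0.04 over all tested genes. These counts and medians describe the list, and nothing is read from them. Igf2 and H19, which share the distal chromosome 7 region with Cdkn1c, were lower in each comparison, with Igf2 at 1114 CPM in AGM, 65.4 CPM in fetal liver and 0.153 CPM in bone marrow. Before thinning Igf2 was in all 143 AGM cells, as Cdkn1c was. In fetal liver 89 of the 209 cells with Cdkn1c also held Igf2, which was in 204 of all 454 cells. After thinning 37 of 419 fetal liver cells held both genes, where the product of their shares gives 42.5 cells. In the same region Tspan32, a tetraspanin, was higher in fetal liver than in AGM (288.9 against 84.8 CPM, edgeR adjusted p = 0.000293) and in bone marrow than in AGM (328.2 against 84.8 CPM, edgeR adjusted p = 6.23e-05). Phlda2, the neighbour of Cdkn1c that restrains placental growth, was higher in bone marrow (56.8 CPM) than in AGM (6.35 CPM, edgeR adjusted p = 0.0125). Kcnq1ot1, the noncoding RNA of the Cdkn1c domain, was not called in any comparison (77.4 CPM in AGM, 56.8 CPM in fetal liver and 60.7 CPM in bone marrow). Its nuclear RNA was not read.

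Around the other members, Osbpl1a, the neighbour of Impact and a lipid-binding protein gene, was higher in bone marrow (141.2 CPM) than in fetal liver (28.5 CPM, edgeR adjusted p = 9.74e-05) and in AGM (23.3 CPM, edgeR adjusted p = 0.000307). Of the Dlk1 domain, Rian and Mirg had at most 2.71 CPM in the cytoplasmic RNA of any tissue and were not called. Of the Ndn region, Snrpn and Ube3a were not called either, with Ube3a at 80.7 CPM in fetal liver against 144.8 CPM in AGM (edgeR adjusted p = 0.0974). Usp29, beside Peg3, had 75 AGM UMIs, 2 fetal liver UMIs and 4 bone marrow UMIs and was not called. Away from the members, Slc38a4, an amino acid transporter gene, had 252 AGM UMIs, 85 fetal liver UMIs and 0 bone marrow UMIs and in bone marrow was lower than in fetal liver (edgeR adjusted p = 0.0444) and in AGM (edgeR adjusted p = 0.0139). Slc22a3, a cation transporter gene, was higher in bone marrow (30.5 CPM) than in fetal liver (4.04 CPM, edgeR adjusted p = 0.0381). Igf2r, the receptor that clears IGF2, was lower in bone marrow (3.79 CPM) than in AGM (26.04 CPM, edgeR adjusted p = 0.0436). Mcts2, a retrogene whose reads may be shared with its near-identical parent gene, was lower in bone marrow (1.89 CPM) than in AGM (32.5 CPM, edgeR adjusted p = 0.0496).

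The genes most like each member over the 12 plates were found by Pearson's r of log2(CPM + 1) among 7077 genes, as a description, since plates share tissues and depth. Cdkn1c was most like Hes1 (r = 0.94), F10 (0.921) and Ptprb (0.911). Plagl1 was most like Mogat2 (0.983), Limch1 (0.983) and Hey1 (0.98). Dlk1 was most like Tnfrsf25 (0.955), Lgals1 (0.93) and Nek6 (0.918), all highest in fetal liver. Grb10 was most like Frrs1 (0.883), Anxa3 (0.882) and Copg2 (0.869), Ndn most like Mrpl11 (0.952), Drg2 (0.912) and Tmem98 (0.898), and Impact most like Cisd3 (0.934), Alcam (0.92) and Smarca2 (0.888). Peg3, Mest and Meg3 were below the 20 CPM, as the mean of origins in the highest tissue, that this search asked for.

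Markers of other cell types that also use imprinted genes were read as well. The summed level of 12 mesenchyme markers was 60.4 to 69.2 CPM on AGM plates, mostly Acta2 (56.2 CPM), 7.60 to 12.4 CPM on fetal liver plates and 0.650 to 13.5 CPM on bone marrow plates, and Col3a1 was at 0 in AGM. Only 2 cells held at least 3 of these markers, both on AGM plate 1, and leaving them out ended no call of a member. Hepatocyte markers summed to 50.5 to 58.8 CPM in AGM, 28.8 to 82.9 CPM in fetal liver and 53.3 to 92.1 CPM in bone marrow, mostly Trf and Afp in the later tissues and Trf and Apoa1 in AGM, where Afp was at 0. Alb had 1 AGM UMI, 8 fetal liver UMIs and 4 bone marrow UMIs. Macrophage markers, mostly Cd68, summed to 17.2 to 20.6 CPM on AGM plates, 46.5 to 61.1 CPM on fetal liver plates and 16.6 to 82.1 CPM on bone marrow plates. Erythroid markers, mostly Hbb-bt, summed to 136 to 195 CPM on AGM plates, 43.4 to 2204 CPM on fetal liver plates and 168 to 406 CPM on bone marrow plates.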

How the data were processed

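The authors deposited 1 table of UMI counts per gene symbol and well for each plate, without normalization. Per the labels' protocols, beads took away the nuclei and a modified scSTRT-seq read the cytoplasmic polyA RNA. The genome was mm10 and the tools were featureCounts, UMI-tools and SAMtools, per the submitters' processing notes. Tool versions, the annotation and the use of strand were not given in the sources used here. Of 22307 symbols 98.1% matched the names at hand, among them 9 of 9 members.

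The members, the gene lists and the tests were chosen with earlier results of these data known. Named beside the members are up to 3 genes most like each, called imprinted genes and their neighbours, and the most abundant markers. A well counted as a cell from 1000 genes and 3000 UMIs on, with mitochondrial UMIs under 20%, 132 were left out, and no doublet caller was run on singly sorted cells. All 96 well barcodes occur on all 12 plates as well indexes, and 0 kept cells were identical between plates. Counts were summed over plates of an origin code, giving 1 AGM, 2 fetal liver and 2 bone marrow libraries. They were compared in edgeR 4.0.16 (R 4.3.3) with glmQLFit, TMM and filterByExpr in 1 model with 2 residual degrees of freedom. AGM was assumed to vary like the other tissues. The approximate SE is the log2 fold change divided by the square root of F, and it can be too small where UMIs are few. All 9 members passed the filter on low counts, Mest through AGM alone, Plagl1 through AGM and 1 fetal liver origin. A fold against a tissue at 0 uses a floor of 3 UMIs over the group, and with 1 to 3 UMIs the ratio has its exact 95% interval. Shares were compared over plates by two-sided exact permutation tests (scipy 1.17.1), Benjamini-Hochberg adjusted over the 9 members. Binomial intervals are Clopper-Pearson, while the share allowed by a count of 0 is 3 cells of the total. Intervals and floors cover counting error only. The fit was tested on simulated data and left many changed genes uncalled there, so a gene that was not called is not shown to be unchanged. Alternatives are another scaling, filter, tool, unit of replication or cell filter, thinned counts, cells in place of UMIs, and each plate or origin left out. A further 3, which left out cells with mesenchyme or hepatocyte markers or the fullest cell of each origin, were added after seeing the data.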

Additional observations from a re-analysis of the deposited data

Results flagged for a closer look

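Over 33 groups of 5 plates, 5 had a plate that stood apart from the other 4 by more than Dixon's limit. That limit flags about 1 in 20 groups when values are normally distributed. Several of these groups lie near 0, so the number of flags cannot be set against that rate. Bone marrow plate 4 stood apart in Dlk1, at 10.9 CPM and with 7.58% of thinned cells positive, where the other bone marrow plates had at most 1.30 CPM and 1.06%. Fetal liver plate 4 stood apart in Mest (0.125 CPM) because it held the only Mest UMI of that tissue. Bone marrow plate 5 had Cdkn1c in 20.3% of thinned cells, where the next plate had 11.3%, while its Cdkn1c level was within the range of the other plates (25.3 CPM). Fetal liver plate 5 had Meg3 in 13.3% of thinned cells, where the next plate had 2.74%, and the lowest Cdkn1c level of all plates (5.43 CPM).

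The 132 wells left out by the filters held 11 Ndn UMIs in 2 wells and 19 UMIs of the 9 genes in all, out of 107785 UMIs in these wells.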

How the results depend on the processing

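The numbers of genes called moved most. In fetal liver against AGM (748 called) limma, in which origin codes were a random block, called 2170, both tissues fitted alone 2218, cells counted in place of UMIs 348 and thinned counts 429. In bone marrow against fetal liver (732) limma called 2127, both tissues alone 331 and thinned counts 316, and in bone marrow against AGM (1380) limma called 3610 and thinned counts 878. Of the members, 3 were called in bone marrow against fetal liver, but 1 with each plate a library, 0 with both tissues alone, 1 with cells counted (Dlk1, none of the 3) and 0 with thinned counts. The cause was not tested. Leaving out 1 plate or origin gave 181 to 2186, 117 to 1958 and 329 to 2748 called genes, with 2 to 3, 0 to 4 and 2 to 6 called members in fetal liver against AGM, bone marrow against fetal liver and bone marrow against AGM. The lowest of these counts of genes came without fetal liver plate 4 (181, 117 and 329), where 0 members were called in bone marrow against fetal liver and 2 in bone marrow against AGM. The shares past the threshold were 3 to 5 with a plate left out, and the difference in members per cell stayed between -1.051 and -0.9904.

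Signs turned only for members that were not called. Ndn in fetal liver against AGM lay at 0.00, with -0.35 to 0.25 when leaving out plates or origins, -0.04 with RLE scaling and with DESeq2, -0.03 without the filter and without cells holding hepatocyte markers, -0.13 with each plate a library, -0.07 with limma, -0.05 with thinned counts and -0.02 without the fullest cells. Meg3 was -0.40 with limma and -0.58 to 1.81 with a plate or origin left out in fetal liver against AGM. Between bone marrow and fetal liver it was 0.01 without cells holding hepatocyte markers and -1.53 to 0.89 with a plate or origin left out. Between bone marrow and AGM it was -0.74 with limma, -0.38 with cells counted, -1.58 without the fullest cells and -0.43 to 0.66 with a plate or origin left out. Peg3 in fetal liver against AGM was -1.46 to 0.19 with a plate or origin left out. The thinned share of Meg3 differed by -2.77 to 0.289 points with a plate left out, and that of Impact by 1.75 points when at least 2 UMIs were asked for. Of the 11 calls, 3 held in all 29 alternatives (Plagl1 and Cdkn1c in bone marrow against AGM, Plagl1 in fetal liver against AGM). The median log2 change of all genes lay between -0.119 and 0.201 over all alternatives, furthest up without AGM plate 1. No paired analysis was possible because the replicate numbers follow accession order and pair no plates.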
